A study of Mus musculus with 12 samples.

Results

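Heat production in fat is driven or restrained by proteins in the mitochondrion and at the cell surface. It also involves lipid droplet proteins that are abundant in brown and beige adipocytes. Described here are the N6-methyladenosine (m6A) sites of 6 such genes, Ucp1, Otop1, Letmd1, Kcnk3, Cidea and Plin5, in iWAT, the inguinal white adipose tissue of mice, a depot under the skin of the groin. The labels name the source of this tissue as adipocytes, and the pads also hold vessels, immune cells and progenitors. m6A is a methyl mark on adenosines of mRNA, and MeRIP-seq maps it by sequencing mRNA fragments captured by an antibody against the mark (m6A IP) next to fragments that skipped the capture (input). Male C57BL/6 mice of 8 weeks (C57BL/6J in the methods of the study) spent 7 days in the cold (4 °C) or at thermoneutrality (30 °C), with 3 m6A IP and 3 input libraries at each temperature, 12 libraries in all. The labels name no further treatment or allele in any mouse, and they do not state whether each library came from 1 mouse or from pooled mice.

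The sites were selected on their fold and p-value by the authors, since only sites that differed between the temperatures are listed. All sites of these genes were taken from both lists, that of sites higher and that of sites lower in cold. They amount to 10 of 739 sites and 6 of 574 genes. All 10 stood in the list of sites higher in cold, which holds 40.7% of all listed sites, and all 6 genes had higher sites only, as did 36.1% of all listed genes. The folds and p-values chose these sites, so they are a description and were not tested again. A fold is the deposited ratio of the larger to the smaller signal. It is cold over thermoneutral for sites higher in cold, and the reverse for sites lower in cold. Whether the inputs entered it is not stated, so more methylation and more transcript cannot be told apart in any value below. Likewise more cells of a type and more RNA per cell cannot be told apart in whole tissue. No level of a single library was analysed, so no fold has an SD or n.

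m6A is placed on mRNA by a nuclear methyltransferase complex with the catalytic subunit Mettl3, mostly at adenosines of the sequence called DRACH (A, G or T, then A or G, then AC, then A, C or T), and it is known to lie mostly in long exons and around stop codons. Proteins that read the mark alter the stability and the translation of the transcript. In beige adipocytes, cells with many mitochondria that form in white fat during cold, Ucp1 turns the proton gradient of the mitochondrion into heat, fuelled by fatty acids from small lipid droplets.

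Sequences are given for the stretches that carry the sites. The last 30 coding bases are printed first, with the stop codon in capitals, for the sites that cover a stop codon. All sequences were read 5' to 3' on the transcribed strand of GRCm38 (mm10), and positions count from 1. The site of Cidea is described by its values alone.
Ucp1, chr8:83297942-83297971, plus strand: tccagacagacagtggattgtaccacaTAA
Otop1, chr5:38302865-38302894, plus strand: gccctctttgaggtctattgtaagatcTAG
Letmd1, chr15:100477817-100477846, plus strand: tccaccaactaccttgagacaaggcgcTGA
Plin5, chr17:56112029-56112058, minus strand: cacacaatgatgccagagctggacttcTGA

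For each gene the DRACH match nearest the middle of its strongest site is shown in capitals with 10 bases on each side, since a site of this length does not say which adenosine was methylated. All 725 listed sites that could be placed in a coding transcript held at least 1 such match, so a match alone sets no site apart.
Ucp1, 3' UTR, chr8:83298132-83298156, plus strand: aagggaaaacTAACAcatacacata
Otop1, 3' UTR, chr5:38303001-38303025, plus strand: ccttttgttcTGACTgtctggagtt
Letmd1, 3' UTR, chr15:100478067-100478091, plus strand: ctctggtactGAACTtttattgtga
Kcnk3, 3' UTR, chr5:30624659-30624683, plus strand: aaggccaatgTGACCatttggggag
Plin5, 3' UTR, chr17:56111980-56112004, minus strand: ggtggtcatgTGACAgcactcacgc

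**Figure D1:**
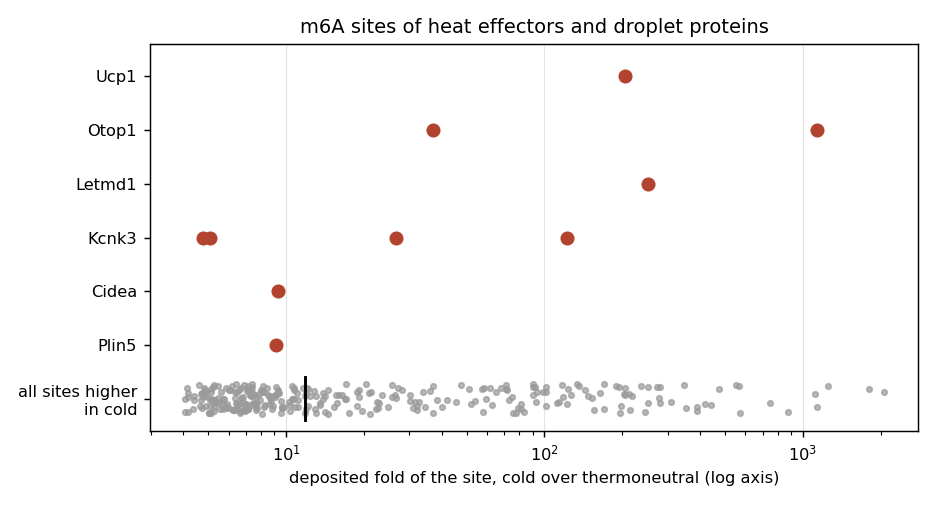
Deposited fold of each m6A site, cold over thermoneutral, on a log axis, 1 row per gene and 1 point per site, above all 301 sites higher in cold, whose median of 11.8 is the black bar (points are spread vertically for legibility). The 10 sites run from 4.74 for Kcnk3 to 1137.8 for Otop1. Those of Cidea and Plin5 and the Kcnk3 sites of 4.74 and 5.08 lie left of the bar.

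By the strongest site of each gene, the mitochondrial proteins and the channels had larger folds than the droplet proteins, while 2 of the 4 sites of Kcnk3 had smaller folds than either droplet protein. The 10 folds ran from 4.74 to 1137.8 with a median of 31.7, beside a median of 11.8 over all 301 higher sites, where the range was 4.05 to 2053.2. The strongest sites of Otop1, Letmd1, Ucp1 and Kcnk3 were between 122-fold and 1137.8-fold higher in cold, whereas the sites of Cidea and Plin5 were 9.29-fold and 9.12-fold higher. Folds and p-values were ordered differently among these genes. Ucp1, ranked 31 of 301 by fold, was ranked 295 by p, while Cidea, ranked 174 by fold, was ranked 10 by p.

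Most of the sites lay in the last exon, as did most of all placed sites. By their midpoint, 7 of 10 were in the 3' UTR and 3 in the coding sequence (CDS), or 70.0% in the 3' UTR beside 62.4% of all higher and 63.9% of all lower sites inside an exon. The stop codon lay inside 5 of the 10 sites, those of Ucp1, Letmd1, Cidea and Plin5 and the stronger one of Otop1. Over all placed sites this held for 32.7% of the higher and 23.0% of the lower ones. The last exon held 8 of the 10 sites, or 80.0% beside 68.4% of all higher and 74.5% of all lower placed sites, and the last exon of every one of these 6 genes had a site. Site lengths ran from 413 to 1079 bp with a median of 569 bp, beside 419 bp over all higher and 379 bp over all lower sites.

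Exon length went along with which exons had a site. The shortest listed site was 300 bp, so shorter exons were nearly out of reach of these lists. The 6 transcripts have 38 exons, of which 10 have 300 bases or more, and 8 of these 10 had a site. The remaining pair were the first exons of Ucp1 and Otop1. Among the 28 shorter exons 1 had a site, exon 6 of Otop1, which is set off from exon 5 by a single base of the genome in the RefSeq annotation. Together the sites covered 43.8% of the spliced length of the 6 transcripts.

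**Figure D2:**
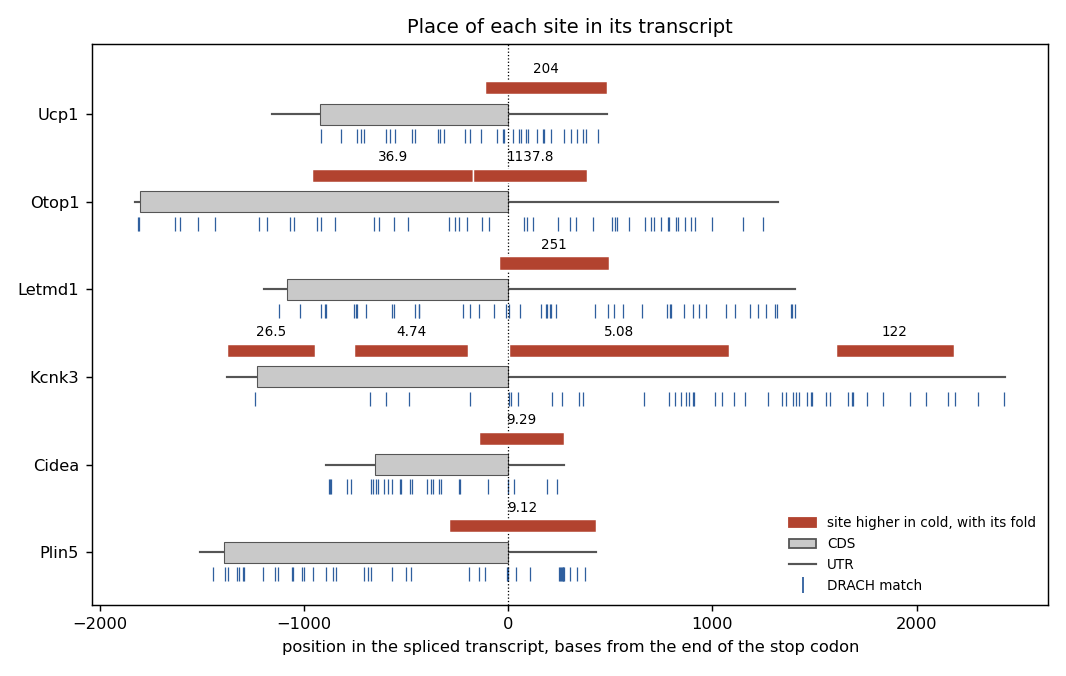
Spliced transcripts of the 6 genes aligned at the end of the stop codon (position 0, dotted line), with the CDS as grey bars, UTRs as lines, sites higher in cold as red bars with their fold, and DRACH matches as blue ticks. Stop codons lie inside a site in 5 genes, and 69.5% of the Kcnk3 transcript is inside 1 of 4 sites.

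Ucp1 (Entrez gene 22227) encodes uncoupling protein 1, which lets protons return across the inner mitochondrial membrane without making ATP. Its only site, chr8:83297857-83298456 on the plus strand, was 600 bp long and equalled exon 6 of 6, from base -114 to base 485 counted from the end of the stop codon, and so reached the end of the transcript NM_009463.3. The site was 204-fold higher in cold in the authors' table (p = 7.12e-06, FDR 5.44e-05 by diffReps). That p stands close to the largest listed, 9.65e-06, so the Ucp1 site entered the list near its edge. It held 115 coding bases and the whole 3' UTR of 485 bases. With 18 DRACH matches, 30.0 per 1000 bases, it was the densest of the 10 sites, and 83.3% of the placed higher sites were less dense. It was also rich in A and T, with 35.3% G and C, and held no GGAC, a sequence that occurred in 73 of the 80 listed sites within 10% of its length. Outside the site the transcript of Ucp1 held 15.3 DRACH matches per 1000 bases.

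Otop1 (Entrez gene 21906) encodes otopetrin 1, a proton channel that was first known from the inner ear. It had a pair of sites that meet without a gap in the spliced transcript NM_172709.3, on either side of the junction of exons 6 and 7. The upstream site, chr5:38299742-38300531 on the plus strand, was 790 bp long, lay in exons 5 and 6 of 7 within the CDS, from base -959 to base -171, and was 36.9-fold higher in cold in the authors' table (p = 6.99e-09 by diffReps). Downstream, the site chr5:38302724-38303280 was 557 bp long, began at the first base of exon 7, ran from base -170 to base 386 and was 1137.8-fold higher in the authors' table (p = 1.42e-08 by diffReps). This was the 4th largest of the 301 folds of higher sites. The larger fold was thus 30.9 times the smaller one across a single exon junction. Among the 35 genes with several sites that were all higher, the median of this ratio was 7.35 and Otop1 ranked 5th. A fold of 1137.8 is a whole multiple of 0.1, as 36 of the 301 higher folds were. No thermoneutral level was analysed, so whether this or any other fold here, that of Letmd1 included, stands against a level at or near 0 was not tested.

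The part of the upstream site next to the junction is shown because the pair of sites meet there and its sequence is coding throughout. A fold is given per site only, so where the signal itself changes is not known. Exon 6 of Otop1, chr5:38300291-38300531 on the plus strand, has 241 bases with 4 DRACH matches, here in capitals, of which 3 hold GGAC.
Otop1, exon 6: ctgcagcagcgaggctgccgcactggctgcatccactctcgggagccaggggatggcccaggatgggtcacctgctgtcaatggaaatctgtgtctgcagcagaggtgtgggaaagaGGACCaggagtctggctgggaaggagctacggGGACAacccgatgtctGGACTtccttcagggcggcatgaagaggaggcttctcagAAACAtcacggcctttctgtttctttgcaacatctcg
The pair of sites were alike in density, with 13.9 DRACH matches per 1000 bases upstream and 14.4 downstream. Both were below the median of 21.9 over all placed higher sites. In G and C they differed, with 58.7% upstream and 47.8% downstream.

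Letmd1 (Entrez gene 68614) encodes a mitochondrial protein that brown fat of mice needs for heat production. Its only site, chr15:100477802-100478340 on the plus strand, was 539 bp long, in exon 9 of 9 of NM_134093.3, and 251-fold higher in cold in the authors' table (p = 2.52e-08, FDR 3.24e-07 by diffReps). It took in the last 45 coding bases and the first 494 bases of a 3' UTR of 1406 bases, so 912 bases of the transcript followed it without a listed site. The site held 11 DRACH and 2 GGAC matches. Its 20.4 DRACH matches per 1000 bases compare with 18.4 per 1000 bases in the rest of the transcript.

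Kcnk3 (Entrez gene 16527) encodes a background potassium channel sensitive to acid, which is known to restrain the adrenergic response of mouse brown adipocytes. It had 4 sites, all higher in cold, and was among 9 of the 574 listed genes with at least 4 sites, whereas 471 genes had 1. Its transcript NM_010608.2 has only 2 exons, of 430 and 3380 bases, and both had sites. From its 5' to its 3' end the folds were 26.5 over exon 1, 4.74 in the CDS of exon 2, 5.08 at the start of the 3' UTR and 122 further into it. Spliced gaps of 191, 201 and 521 bases separated neighbouring sites. Between the last pair of sites, both in the 3' UTR within exon 2, the larger fold was 23.9 times the smaller one.

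The first Kcnk3 site, chr5:30588170-30588599 on the plus strand, equalled exon 1 and held the start codon, with 147 bases of 5' UTR and 283 coding bases. It was 26.5-fold higher in cold in the authors' table (p = 2.35e-08 by diffReps). Only 1 of the 10 sites, and 5.1% of all placed higher sites, held a start codon. With 1 DRACH match in 430 bases it was also the least dense of the 10, while the 125 listed sites within 10% of its length, itself included, had a median of 9 and none but itself had so few. Its G and C content of 72.8% was above that of 99.7% of the placed higher sites. The coding part is printed because it holds no DRACH match at all, the only match of the site standing upstream in the 5' UTR (chr5:30588291-30588315, gggccggcgaGGACCcgggagggac, with the match in capitals).
Kcnk3, coding part of exon 1, chr5:30588317-30588599, plus strand: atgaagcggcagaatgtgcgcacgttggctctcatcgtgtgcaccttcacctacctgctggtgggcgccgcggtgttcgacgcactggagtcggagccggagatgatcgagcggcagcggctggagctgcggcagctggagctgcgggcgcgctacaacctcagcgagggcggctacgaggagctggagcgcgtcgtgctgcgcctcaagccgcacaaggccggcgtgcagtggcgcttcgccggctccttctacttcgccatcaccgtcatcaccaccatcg
An exon of the noncoding gene Gm9899, annotated on the opposite strand, shared 229 bases with this site. The strand of the libraries is not stated, so reads of Kcnk3 and of Gm9899 cannot be told apart there. No other site of the 6 genes overlapped a RefSeq exon of another gene.

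The remaining 3 sites of Kcnk3 lay in exon 2. Inside the CDS, chr5:30622082-30622640 was 559 bp long, ran from base -755 to base -197 and was 4.74-fold higher in cold in the authors' table (p = 1.28e-07 by diffReps). It held 3 DRACH matches, beside a median of 11 over the 101 listed sites within 10% of its length, none of which other than itself had so few. At the start of the 3' UTR, chr5:30622842-30623920 was the longest of the 10 sites with 1079 bp, began 5 bases after the end of the stop codon and was 5.08-fold higher in the authors' table (p = 1.51e-06 by diffReps). With 16 DRACH matches it had fewer than the median of 24 over the 12 listed sites within 10% of its length. Last, chr5:30624442-30625020 was 579 bp long, ran from base 1605 to base 2183, ended 250 bases before the end of the transcript and was 122-fold higher in the authors' table (p = 1.72e-10 by diffReps). It held 8 DRACH and 3 GGAC matches. The folds of 4.74 and 5.08 ranked 286 and 275 of 301, so 2 of the 4 sites were close to the edge of the list, where the smallest fold was 4.05.

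Plin5 (Entrez gene 66968) encodes perilipin 5, which coats lipid droplets in tissues that burn fat and tethers them to mitochondria. Its only site, chr17:56111601-56112320 on the minus strand, was 720 bp long and lay in exon 9 of 9 of NM_025874.3, from base -291 to base 428, the end of the transcript. It was 9.12-fold higher in cold in the authors' table (p = 7.47e-10, FDR 1.45e-07 by diffReps), and ranked 175 of 301 by fold and 25 by p. With 17 DRACH matches, 23.6 per 1000 bases, it was the second densest of the 10. Of these, 7 came from a repeat of 4 bases in the 3' UTR, from base 250 to base 274, each overlapping the next, and its sequence is shown with the A before each C in capitals.
Plin5, chr17:56111753-56111781, minus strand: aaAcaaAcaaAcaaAcaaAcaaAcaaAca
Of the 725 placed sites, 2 held so long a run of overlapping matches, this one included. With overlapping matches counted once, a count chosen after seeing the data, the Plin5 site had 11 matches or 15.3 per 1000 bases, and the Ucp1 site 16 or 26.7.

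A second droplet protein, Cidea (Entrez gene 12683), belongs to a family that joins and enlarges lipid droplets and is a usual marker of brown fat. Its only site, chr18:67367382-67367794 on the plus strand, was 413 bp long and equalled exon 5 of 5 of NM_007702.2, from base -141 to base 271, the end of the transcript. The site was 9.29-fold higher in cold in the authors' table (p = 4.85e-11, FDR 1.83e-08 by diffReps), the smallest p of the 10. It held 142 coding bases and the whole 3' UTR of 271 bases. With 5 DRACH matches, 12.1 per 1000 bases, it was sparser than the rest of its transcript, which had 30.6 per 1000 bases.

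**Figure D3:**
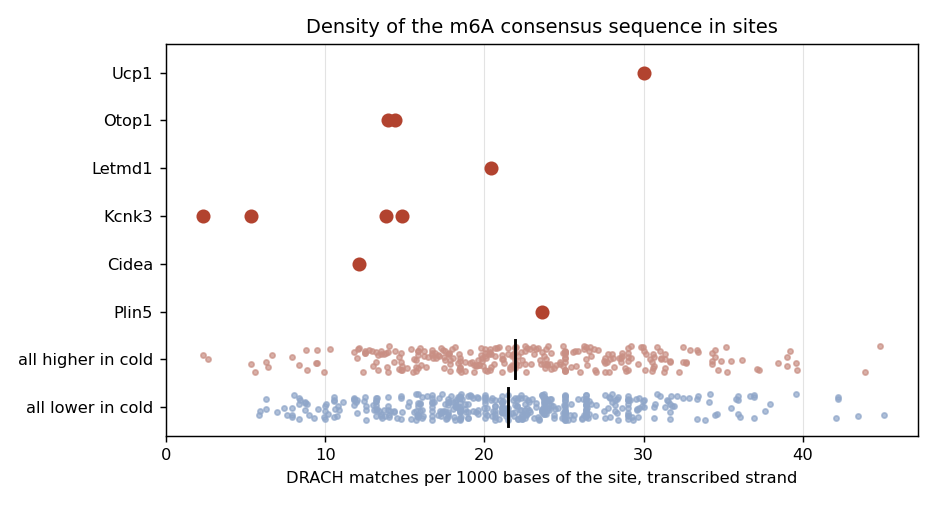
DRACH matches per 1000 bases on the transcribed strand, 1 red point per site of the 6 genes, above all placed sites higher and all placed sites lower in cold, with medians as black bars at 21.9 and 21.5 (points are spread vertically for legibility). Sites of Ucp1 and Plin5 lie right of both bars, and the other 8 lie left of them.

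Over the 10 sites DRACH matches were sparse, and GGAC matches were not. The median was 14.1 DRACH matches per 1000 bases, beside 21.9 over all placed higher and 21.5 over all placed lower sites, and 8 of the 10 sites were below both medians, 4 of them on the transcript of Kcnk3 and 2 on that of Otop1. GGAC, which is part of a DRACH match wherever A, C or T follows it, had a median of 4.75 per 1000 bases in the 10 sites, beside 4.01 over higher and 3.15 over lower sites. It was present in 9 of the 10 sites and in 85.7% of the placed higher ones. Their median G and C content was 53.9%, beside 48.2% over higher and 48.4% over lower sites. Within the 6 transcripts, sites held 98 matches, 15.6 per 1000 bases, and the remaining bases 148, 18.4 per 1000 bases. In Ucp1, Letmd1 and Plin5 the sites were denser than the rest of the transcript, and in Otop1, Kcnk3 and Cidea they were less dense. With overlapping matches counted once Plin5 changed sides, with 15.3 per 1000 bases in its site and 19.7 outside it, and the other 5 genes did not. These are counts of letters, and none of them was measured in the libraries.

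Listed sites around the 6 genes are given without the same distances over other genes, so they are not read as few or many. The protein-coding genes annotated on either side had none, with 1 exception, Impa2 beside Cidea, which encodes an inositol monophosphatase. Its site was 114-fold higher in cold in the authors' table, 24.8 kb from Cidea. Plin4, another perilipin, begins or ends 1649 bp from Plin5 and had no listed site. For the other 5 genes the nearest listed site lay from 295 kb (Ptprs, 5.80-fold lower, beside Plin5) to 2071 kb (Psapl1, 145-fold lower, beside Otop1) away. Kcnk3 and Otop1 are both on chromosome 5 but not neighbours, and the nearest listed site to Kcnk3, 319 kb away in Ept1, was 189-fold lower in cold. Nearest to Ucp1, a site of Dnase2a 1613 kb away was 79.1-fold lower, and nearest to Letmd1, a site of Gpd1 737 kb away was 6.69-fold higher. Peak numbers in the deposited tables rise with position for all 719 pairs of neighbouring listed sites on a chromosome. The numbers of the Kcnk3 sites, 13814 and 13820 to 13822, leave a gap after exon 1, and those of Otop1, 13942 and 13943, leave none.

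Likeness of fold was taken as the distance on the log2 scale to other sites higher in cold. Closest to the larger fold of Otop1 were Nat8l (1114.7) and Acss1 (1255.9), which act in the N-acetylaspartate and acetate routes to acetyl-CoA. For Ucp1 they were Slc7a2 (203.4) and Lin7c (205.4), for Letmd1 Zscan22 (252.3) and Poln (246), and for the strongest site of Kcnk3 a site of Ttn (123) and Cpt1b (118). Plin5 was closest to Zswim6 (9.11) and Des (9.05), and Cidea to Rtn4rl1 (9.30) and Foxk1 (9.31). The upstream site of Otop1 was nearest to Ccdc93 (37.2) and Chchd3 (36.1). Sites of Plg (26.3) and Ttn (27.2) were nearest to Kcnk3 in exon 1, Gpc4 (4.71) and Slc25a51 (4.71) to its site in the CDS of exon 2, and Itpk1 (5.10) and Ndufv2 (5.06) to the site just after the stop codon. The points compared share the same 3 libraries at each temperature, and no shared function follows from a like fold.

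**Figure D4:**
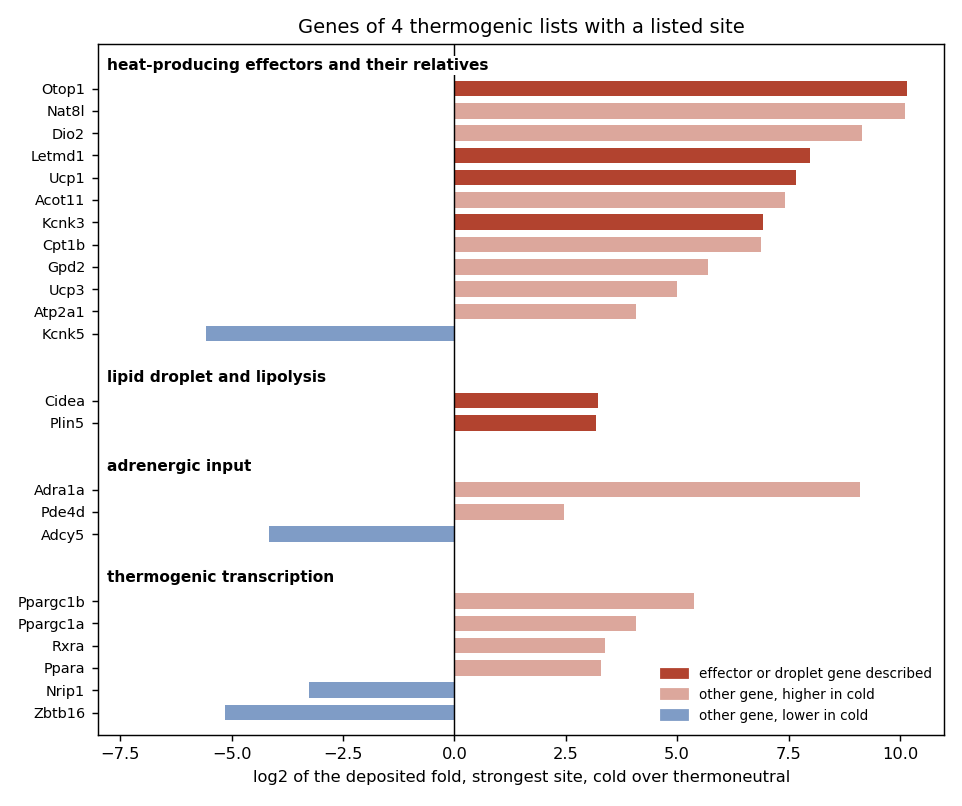
log2 of the deposited fold of the strongest site, cold over thermoneutral, for each gene of 4 lists that had a listed site, with the genes described here in dark red, other genes higher in cold in light red and genes lower in cold in blue. Otop1 has the longest bar at 10.15, and Kcnk5 at -5.57 is the only gene of the effector list below 0.

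Other genes of heat production also had listed sites. The share of all annotated genes with a listed site is not given here. The counts of genes with a site in the lists below are therefore not read as many or few. All lists were chosen with earlier results of these data known, so the directions of their genes are a description only. Of 36 genes in a list of effectors and their relatives 12 had a site, 11 with higher sites only and 1 with a lower site, where 36.1% of all listed genes had higher sites only. Apart from Otop1, Letmd1, Ucp1 and Kcnk3, the list holds 32 genes, of which 8 had a site and 7 were higher in cold in the authors' table. By the strongest site of each, these 7 are led by Nat8l, which makes N-acetylaspartate (1114.7-fold), and Dio2, the deiodinase that activates thyroid hormone (567.9-fold). Next are Acot11, an acyl-CoA thioesterase (170-fold), and Cpt1b, an enzyme of fatty acid entry into mitochondria of muscle and brown fat (118-fold). The rest are Gpd2, the mitochondrial glycerol phosphate dehydrogenase (51.9-fold), Ucp3 (32.1-fold) and Atp2a1, the calcium pump of fast muscle (16.8-fold). Kcnk5, a potassium channel of the same family as Kcnk3, was 47.6-fold lower. Otop1 thus had the largest fold of this list, just above Nat8l. Both folds and that of Dio2 are whole multiples of 0.1, and the thermoneutral levels behind them were not analysed.

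Of 33 lipid droplet and lipolysis genes, Cidea and Plin5 alone had a site. Of 21 genes of adrenergic input to the adipocyte 3 had a site, by the strongest site Adra1a, an alpha-1 receptor (553.1-fold higher), Pde4d, a cyclic AMP phosphodiesterase (5.54-fold higher), and Adcy5, an adenylyl cyclase (18-fold lower). Among 24 genes of thermogenic transcription 6 had a site. The coactivators Ppargc1b (41.8-fold) and Ppargc1a (17.0-fold) and the nuclear receptors Rxra (10.3-fold) and Ppara (9.82-fold) were higher in cold, and the zinc finger factor Zbtb16 (35.3-fold) and the corepressor Nrip1 (9.66-fold) were lower, each by its strongest site. Genes of these lists without a listed site either had no site called or had none that passed the authors' limits. Which of these held cannot be told here, so their absence measures no difference of any size.

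Skeletal muscle markers that had a site went the same way as the 6 genes. White adipocyte, macrophage, and fibroblast and preadipocyte markers that had one went the opposite way. Over all listed genes 36.1% had higher sites only, so lower sites were the more common direction. Beige markers stand among the 6 genes and in the lists above, where Dio2 and Ppargc1a were higher in cold. Of 16 skeletal muscle markers 8 had a site, all higher in cold, with strongest sites from 8.19-fold for Casq1 to 169-fold for Neb, and Atp2a1 stands in that list and in the effector list. Of 12 white adipocyte markers 2 had a site, Nnat (31.8-fold lower) and Lep, which encodes leptin (4.96-fold lower). Macrophage markers had a site in 5 of 10 genes and fibroblast and preadipocyte markers in 5 of 10, all lower, and none of 6 endothelial markers had one. A site shows a difference and not a level, so these markers do not tell the makeup of the tissue, and their part in the sites of the 6 genes was not tested.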

How the data were processed

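MeRIP-seq libraries of mouse iWAT formed 4 groups of 3 by their titles. According to the methods of the study, cutadapt trimmed the reads, Hisat2 aligned them to mm10, MACS2 called peaks, HOMER sought motifs and diffReps compared the temperatures. The submitters' processing notes instead name Bowtie 0.12.2, MACS2, HOMER, mm8 and mm10. Coordinates were read as mm10, in which 3 of the 10 sites equal a whole exon. Every value used comes from the authors' comparison of C with T, read as cold and thermoneutral from the initials of the titles. The authors deposited a fold (a linear ratio above 1 in both tables), a p-value, an FDR, a score that is −log10 of that p-value, and positions and lengths in bp. The sources used here do not state the normalization of the signal or the use of inputs. Library depth is unknown, so no interval is given, and no test was run. Unmapped sample columns numbered 0.

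Starts were read as counted from 0. Sites were placed on the RefSeq (GRCm38.p6) transcript with the longest CDS, preferring the listed transcript in ties, with Python 3.11.15, pandas 2.3.3, numpy 2.4.6 and pysam 0.24.0, and drawn with matplotlib 3.10.9. Of 739 sites, 14 had no coding transcript to be placed on. DRACH and GGAC were sought on the transcribed strand, overlaps included. Functions were tested on simulated data. Alternatives concerned placement, transcript, start counting, motif, thresholds and sites per gene. The genes named are the 6 genes, listed genes of 4 thermogenic lists and of the marker lists, nearest sites, adjacent genes and the 2 nearest folds. The 6 genes and all lists were chosen with earlier results of these data known.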

Additional observations from a re-analysis of the deposited data

How the results depend on the processing

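All 7 sites in the 3' UTR stayed 7 by the region with most bases, by the longest transcript, with starts counted from 1 and with GENCODE M21, the last chosen after seeing the data. All 6 genes kept higher sites only at a fold of at least 8 (8 sites left). At a p of at most 1e-07 and at an FDR of at most 1e-06, 7 sites in 5 genes were left, all higher in cold, since the site of Ucp1 and the 4.74-fold and 5.08-fold sites of Kcnk3 did not pass. The median fold of 31.7 was 163 with the strongest site of each gene, 26.5 without folds in whole multiples of 0.1, and 36.9 at a p of at most 1e-07, where fewer sites enter each time. The median of 14.1 DRACH matches per 1000 bases was 14.12 with starts counted from 1, 14.15 over exonic bases only and 14.1 with overlapping matches counted once. GGAC in its place had a median of 4.75, beside 4.01 over higher and 3.15 over lower sites. With GGAC the 10 sites were thus not sparser than other listed sites. The median length of 569 bp was 568 bp with the strongest site of each gene and 570 bp with starts counted from 1. No paired analysis was possible because only the finished comparison was analysed, with no value of a single library, so spread between mice, depth and the part of transcript amount in a fold limit every value here.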

Other observations

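The junction of exons 6 and 7 in Otop1 was 1 of 4 places in the tables where neighbouring sites of a gene met without a gap in the spliced transcript, out of 150 pairs of neighbouring sites. All 4 lay at an exon junction, in 2010003K11Rik, Bgn, Otop1 and Tuba8, a pattern chosen after seeing the data. Both Otop1 sites were cut at the exon ends there. Sites cut in this way can meet only at a junction, so the position of these 4 places is not read as a result. In 3 of them both sites were higher in cold, and the larger fold was 30.9 times the smaller in Otop1, 30.2 times in 2010003K11Rik (194 and 6.44) and 28.7 times in Tuba8 (273.5 and 9.54). In Bgn, which encodes biglycan, both sites were lower and the ratio was 2.91. The signal of single libraries at these junctions was not analysed here.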
